A study of Mus musculus with 6 samples.

Results

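The 7 genes described here encode the activators of the circadian clock and the nuclear receptors that govern them: Arntl, Clock, Npas2, Nr1d1, Nr1d2, Rora and Rorb. They were taken by symbol from a table of 47069 genes counted in the lungs of 6 adult mice at ZT10, which is 10 h after lights on, and each of the 7 symbols matched 1 row. WT mice (WT4, WT5 and WT6) were C57BL/6J, and KO mice (KO4, KO5 and KO6) were of the B6.129S7-Zpbp2tmZuk/Mmjax strain, in which Zpbp2 exons 1 to 3 are deleted on the C57BL/6J background. The labels name no transgene, treatment or sex for either genotype, and mice of both genotypes were raised in 1 colony without being described as littermates. Each mouse gave 1 library from whole lung, so that fewer cells of a type and less RNA per cell cannot be told apart.

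The clock of mammalian cells is a loop of transcription factors. BMAL1, the product of Arntl, pairs with CLOCK or with its close relative NPAS2, binds E-boxes and switches on the Per and Cry genes, whose products then inhibit the pair. The same pair switches on Nr1d1 and Nr1d2, which encode the REV-ERB receptors. REV-ERB receptors repress genes that carry a ROR response element, Arntl first among them, and the ROR receptors, among them those encoded by Rora and Rorb, activate through the same element. In mouse lung, as in other peripheral tissues, the REV-ERB genes peak in the light phase, when Arntl is low.

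The element that REV-ERB and ROR receptors share is shown first because it ties the receptors to the activators. In the RefSeq promoter windows of GRCm38.p6, which run from 250 bases before to 50 bases after a start site, all 7 genes had an entry, with 11 windows in all. The receptor half-site AGGTCA was searched on both strands and stood in 3 of the 11 windows, against 16.3% of all 32851 windows. The longer form TAGGTCA, which contains AGGTCA, stood in 1 of the 11, a window of Arntl, against 2.61% of all windows. The E-box CACGTG, which reads the same on both strands and occurs in 7.15% of all windows, and the D-box TTATGTAA, searched on both strands and found in 0.938%, were in none of the 11. A match is only a match of letters, and these short windows leave out most of the regulatory sequence of each gene. The 3 half-sites are printed 5′ to 3′ on the strand of the gene, with the match in capitals. The first lies on the plus strand at chr7:113207532-113207559, the second on the minus strand at chr14:18239165-18239192 and the third on the minus strand at chr5:76303603-76303630, where it reads as the reverse complement.
Arntl: ggcagaaagTAGGTCAgggacggaggtg
Nr1d2: tggaagaagAGGTCAggaccgctcgttg
Clock: tttggcctcTGACCTgacagatgacaga
Counted from the start site along the gene, the Arntl match begins at 30, the Nr1d2 match at -77 and the Clock match at -119. The Clock match is counted from the third of the 3 starts listed for Clock. The Arntl match is counted from the second start listed for Arntl, and the window of its first start held no match. The single window of Nr1d1 held none of the 4 motifs.

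Between 19981428 and 46796908 reads were counted per library, KO5 being the deepest, and 17037 genes, all 7 members included, were counted highly enough to be tested. Lung markers were high in every library, with 36081 to 56028 CPM (read counts scaled to a common library size after TMM normalisation) summed over 7 epithelial genes. Zpbp2 was counted 1 or 2 times in each WT library and 0 times in each KO library, too few to check the genotype. Xist was measured at 715 to 994 CPM in all 6 libraries, and no Y-linked gene of the 4 examined passed 9 counts in any. The Y-linked counts lay almost all in KO5, with 9 of Ddx3y, 7 of Kdm5d, 6 of Uty and 2 of Eif2s3y. The other libraries had 0 of each, except for 1 of Uty in WT5. Libraries that stood apart included KO5, with 759 CPM summed over 6 B cell genes against 94.0 to 212 CPM in the other 5, and WT6, with 1008 CPM summed over 6 immediate early genes against 388 to 592 CPM. WT5 and KO6 had the highest sums over 5 cardiac muscle genes, 924 and 962 CPM, against 131 to 522 CPM in the other 4.

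Of the 7 genes, Nr1d1, Nr1d2, Clock and Rora had lower mean levels in KO mice and Arntl, Npas2 and Rorb had higher ones. None passed an adjusted p of 0.05 in edgeR's quasi-likelihood test of KO against WT mice, and over all genes tested 6.39% passed, 3.72% higher and 2.67% lower in KO mice. At an unadjusted p of 0.05 there were 4 of the 7 (Nr1d1, Nr1d2, Clock and Rora), against 25.5% of all genes. The exact test of edgeR also called 0, against 8.62% of all genes, and DESeq2 called 2, Nr1d1 and Nr1d2, against 11.2% of all genes. In 4 genes the values of the KO mice did not overlap those of the WT mice, namely Nr1d2, Clock and Rora, all lower, and Arntl, higher, where 32.6% of all genes had groups that did not overlap. Split by direction, 15.6% of all genes lay lower in KO mice without overlap and 17% higher. The median log2 fold change of the 7 was -0.11, and over all genes tested it was 0.0030. None reached the fold threshold of 1.5 on the log2 scale that the study set, which with the adjusted p was passed by 0.64% of all genes.

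**Figure D1:**
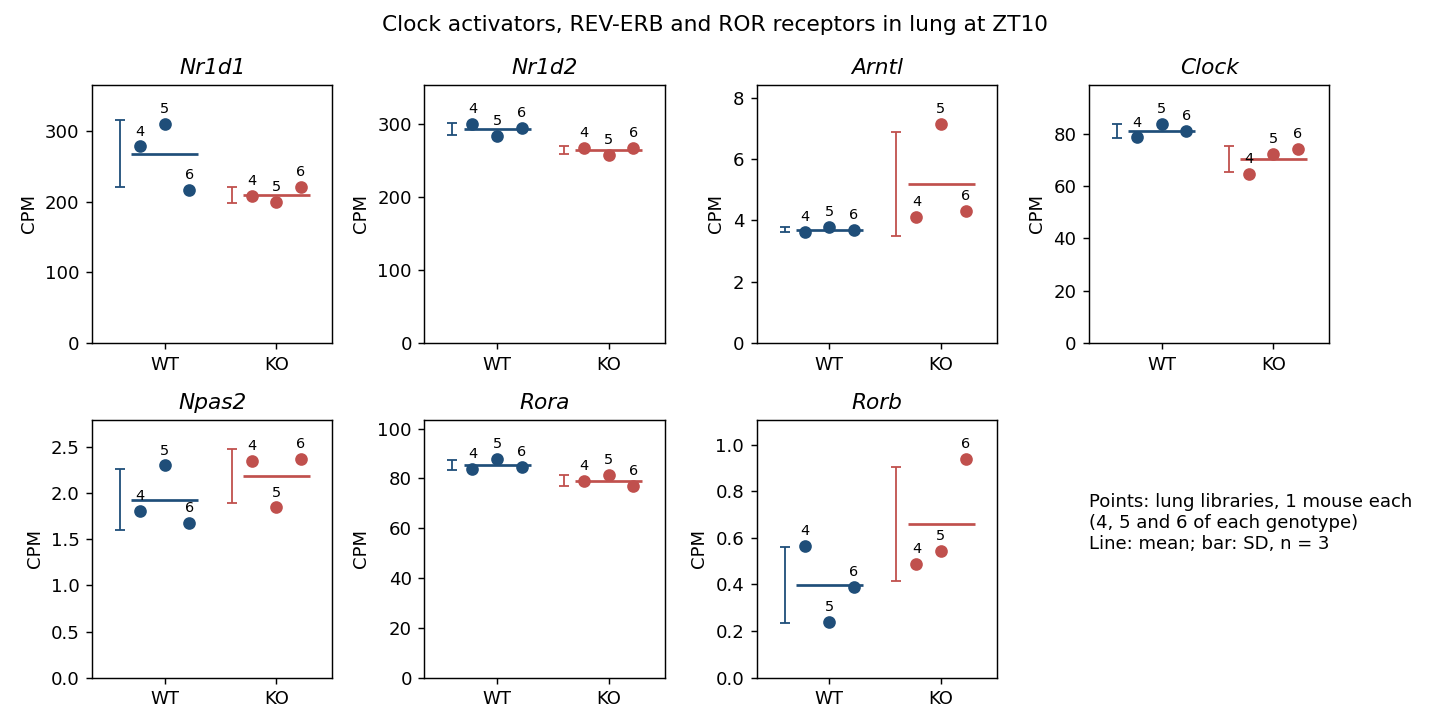
CPM of the 7 genes in each lung library (points, numbered 4 to 6 within WT in blue and KO in red), with the group mean (line) and SD (bar, n = 3); each axis starts at 0. Nr1d2, Clock and Rora are lower in every KO mouse than in any WT mouse, Arntl is higher in every KO mouse with KO5 at 7.13 CPM far above the rest, and the groups of Nr1d1, Npas2 and Rorb overlap.

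The REV-ERB receptors were the most abundant of the 7. Nr1d1 (ENSMUSG00000020889, chr11:98767932-98775333, minus strand, GRCm38) encodes REV-ERB alpha. Whether its level changes with loss of the Zpbp2 region was one of the questions of the study. By RT-qPCR the paper reported lower lung Nr1d1 in KO mice at ZT10, and again in a separate set of mice. In the libraries used here Nr1d1 measured 279, 310.1 and 217 CPM in WT4, WT5 and WT6 and 208, 200.1 and 221 CPM in KO4, KO5 and KO6. The KO mice lay close together, the WT mice were spread widely, and WT6 lay among the KO mice. Counting error was small beside that spread, with exact Poisson 95% intervals of 211 to 222 CPM in WT6 and 303 to 318 CPM in WT5; such intervals cover counting error only. The means were 268 ± 47.6 CPM in WT mice and 209.8 ± 10.7 CPM in KO mice (SD, n = 3 each), a level in KO mice 0.782 times that in WT mice. The log2 fold change was -0.36 with a 95% interval for this gene alone of -0.65 to -0.06, and the adjusted p was 0.136 (edgeR). Without WT6 it was -0.49 (adjusted p = 0.0668, edgeR) and without WT5 it was -0.24 (adjusted p = 0.334, edgeR). DESeq2 gave an adjusted p of 0.0359 for the same fold change.

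WT6, the WT mouse with the lowest Nr1d1, also had the highest summed level of the 6 immediate early genes, as given above, and of 6 heat shock genes, with 3413 CPM against 2475 and 2645 CPM in WT4 and WT5 and 1184 to 1278 CPM in KO mice. WT5, the mouse with the highest Nr1d1, was the WT mouse with the highest cardiac muscle sum, 924 CPM. KO6 had a higher sum, 962 CPM, with Nr1d1 at 221 CPM. The part of these genes in the Nr1d1 result was not tested. The end of Nr1d1 overlaps Thra, the gene of thyroid hormone receptor alpha on the other strand, over 263 of the 3077 exon bases of Nr1d1 (8.55%). Thra measured 97.3, 93.6 and 81.8 CPM in WT4, WT5 and WT6 and 111, 96.8 and 101.6 CPM in KO4, KO5 and KO6, a log2 fold change of 0.18 (adjusted p = 0.218, edgeR), of the opposite sign to that of Nr1d1. The library kit was stranded, but the strand setting of the counting is not given in the sources used here, so that reads of the shared stretch may have been set aside or given to either gene.

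Nr1d2 (ENSMUSG00000021775, chr14:18204054-18239127, minus strand) encodes REV-ERB beta, which shares the DNA element of REV-ERB alpha. It measured 299.5, 284 and 294 CPM in WT4, WT5 and WT6 and 267, 258 and 267 CPM in KO4, KO5 and KO6. All 3 KO mice lay below all 3 WT mice, and both groups were tight. The means of 293 ± 8.01 and 264 ± 5.30 CPM (SD, n = 3 each) put KO mice at 0.903 times the WT level. The log2 fold change of -0.15 (95% interval -0.26 to -0.03) had an adjusted p of 0.119 in edgeR and 0.0490 in DESeq2, and leaving out any 1 mouse gave values from -0.17 to -0.13. No exon base of Nr1d2 is shared with another gene in GENCODE M21.

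Among the activators, Arntl and Clock, whose products form 1 complex, differed in sign. Arntl (ENSMUSG00000055116, chr7:113207465-113314126, plus strand) measured 3.62, 3.79 and 3.69 CPM in WT4, WT5 and WT6 and 4.11, 7.13 and 4.296 CPM in KO4, KO5 and KO6. The 3 WT mice were nearly alike, KO4 and KO6 lay just above them, and KO5 stood alone. The counts behind these values were 79 to 114 in WT mice and 84, 340 and 87 in KO4, KO5 and KO6. The 95% counting interval of KO5, 6.39 to 7.93 CPM, lay clear of all the others, whereas those of KO4 (3.28 to 5.08 CPM) and KO6 (3.44 to 5.30 CPM) included the WT values. The means were 3.70 ± 0.0819 CPM in WT mice and 5.18 ± 1.70 CPM in KO mice (SD, n = 3 each), a log2 fold change of 0.50 (95% interval -0.04 to 1.04, adjusted p = 0.228, edgeR). Without KO5 it was 0.18 (adjusted p = 0.483, edgeR).

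KO5 differed from KO4 and KO6 in cell type genes too. The 6 B cell genes were each higher in every KO mouse than in any WT mouse, as were 17% of all genes tested. None of the 6 passed the adjusted p in edgeR. Their sum was 180.4 CPM in KO4, 759 CPM in KO5 and 212 CPM in KO6 against 94.0 to 103.6 CPM in WT mice. The 6 T cell genes summed to 98.0 CPM in KO5, 37.5 CPM in KO4 and 52.2 CPM in KO6 against 32.5 to 35.5 CPM in WT mice. The order of the 3 KO mice was the same for Arntl and for both sums, and the part of lymphocytes in the Arntl values was not tested.

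**Figure D2:**
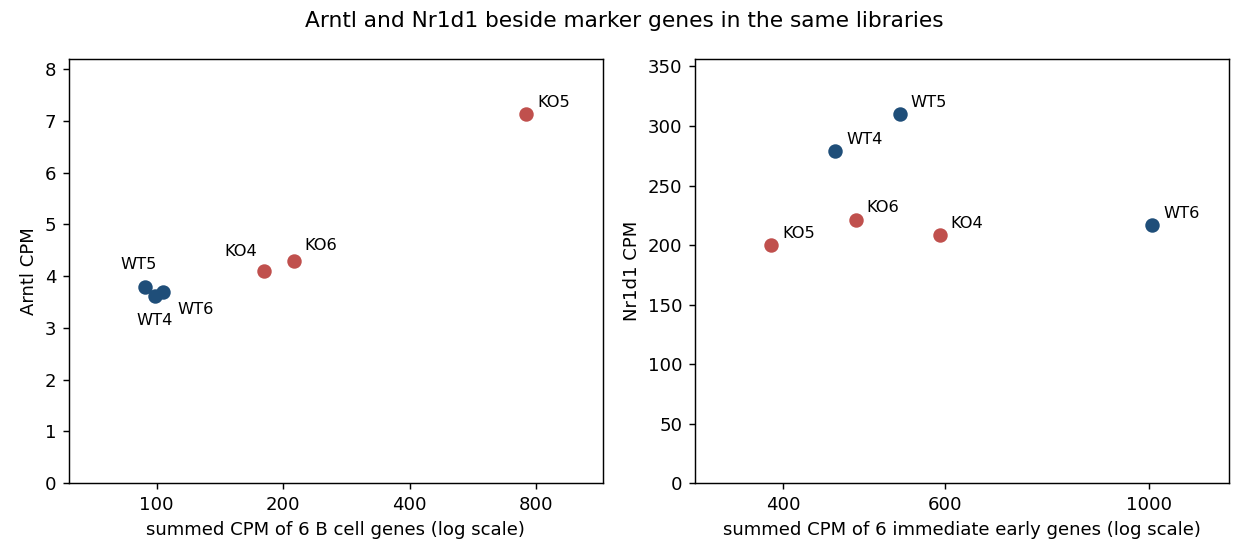
Left, Arntl CPM against the summed CPM of 6 B cell genes (log scale); right, Nr1d1 CPM against the summed CPM of 6 immediate early genes (log scale), 1 point per library with WT in blue and KO in red. KO5 stands alone at the upper right of the left panel (759 and 7.13 CPM), and WT6, at 1008 CPM of immediate early genes, lies level with the KO mice for Nr1d1.

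Clock (ENSMUSG00000029238, chr5:76209868-76304792, minus strand) encodes the partner of BMAL1. It measured 78.6, 83.7 and 81.0 CPM in WT4, WT5 and WT6 and 64.7, 72.2 and 74.3 CPM in KO4, KO5 and KO6. Every KO mouse lay below every WT mouse, KO4 the furthest. The means were 81.1 ± 2.52 and 70.4 ± 5.03 CPM (SD, n = 3 each), and the KO level was 0.869 times the WT level. Its adjusted p of 0.102 (edgeR) was the lowest of the 7, with a log2 fold change of -0.20 (95% interval -0.35 to -0.06). Leaving out 1 mouse gave fold changes from -0.24 without KO6 to -0.15 without KO4.

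Npas2 (ENSMUSG00000026077, chr1:39193731-39363236, plus strand), which can take the place of CLOCK, was counted only 45 to 88 times per library. It measured 1.81, 2.30 and 1.68 CPM in WT4, WT5 and WT6 and 2.35, 1.85 and 2.37 CPM in KO4, KO5 and KO6. The groups overlapped in both directions, with WT5 level with the upper KO mice and KO5 level with WT4. The log2 fold change of 0.17 had a 95% interval of -0.29 to 0.64 and an adjusted p of 0.632 (edgeR), and it ranged from 0.08 without WT6 to 0.31 without WT5.

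The ROR receptors differed in how well they could be measured. Rora (ENSMUSG00000032238, chr9:68653786-69388246, plus strand), the more abundant of the pair, measured 83.9, 87.8 and 84.7 CPM in WT4, WT5 and WT6 and 78.9, 81.3 and 77.1 CPM in KO4, KO5 and KO6. The groups did not overlap, although KO5 and WT4 lay only a few CPM apart. The 95% counting intervals of these libraries, 78.8 to 83.9 CPM in KO5 and 80.4 to 87.6 CPM in WT4, overlapped. The means of 85.5 ± 2.04 and 79.1 ± 2.12 CPM (SD, n = 3 each) gave a log2 fold change of -0.11 (95% interval -0.22 to -0.0032, adjusted p = 0.185, edgeR), the smallest in size of the 7. An antisense gene shares 82 exon bases with Rora and had at most 1 count per library.

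Rorb (ENSMUSG00000036192, chr19:18930605-19111196, minus strand), a receptor best known from retina and brain, was close to the limit of detection. The WT libraries, in the order WT4 to WT6, held 14, 5 and 12 of its reads (0.564, 0.240 and 0.388 CPM), and the KO libraries, in the order KO4 to KO6, held 10, 26 and 19 (0.489, 0.545 and 0.938 CPM). The groups overlapped, and the 95% counting interval reached from 0.0778 to 0.559 CPM in WT5 and from 0.565 to 1.47 CPM in KO6. The log2 fold change of 0.67 (95% interval -0.27 to 1.61, adjusted p = 0.339, edgeR) was the largest in size of the 7 and the least certain, and it was 0.38 without KO6 and 0.99 without WT4.

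In exact permutation tests of log2 CPM, 3 mice against 3 and two-sided, p was 0.1 for Arntl, Clock, Nr1d2 and Rora, the smallest that this design allows. It was 0.2 for Nr1d1 and Npas2 and 0.3 for Rorb. A permutation p of 0.1 follows whenever the groups do not overlap, as in 32.6% of all genes. It therefore repeats the lack of overlap given above and adds nothing to it.

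Per kb of exon, the 7 genes spanned more than 3 orders of magnitude, and the REV-ERB receptors stood above all the others. In WT mice Nr1d1 was at 87.3 ± 15.5 CPM per kb and Nr1d2 at 54.1 ± 1.48 (SD, n = 3), with Nr1d1 above Nr1d2 in each group of mice. Rora at 6.54 ± 0.156 and Clock at 5.91 ± 0.184 CPM per kb followed, and then Arntl at 0.492 ± 0.0109, Npas2 at 0.403 ± 0.0681 and Rorb at 0.0359 ± 0.0146. With this length Arntl and Npas2 hardly separated in WT mice, where the highest Npas2 value was 0.480 and the lowest Arntl value 0.482 CPM per kb. With the longest transcript they lay apart, Arntl at 0.907 to 0.948 and Npas2 at 0.397 to 0.543, as they did with the longest coding sequence, at 1.91 to 1.99 and 0.687 to 0.940. The order of other neighbours rests on the length used. With the longest transcript Clock (8.32) came above Rora (7.86), and with the longest coding sequence Nr1d2 (169) came above Nr1d1 (146), so neither pair is ordered firmly. The place of Arntl, Npas2 and Rorb at the low end was the same with all 3 lengths.

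**Figure D3:**
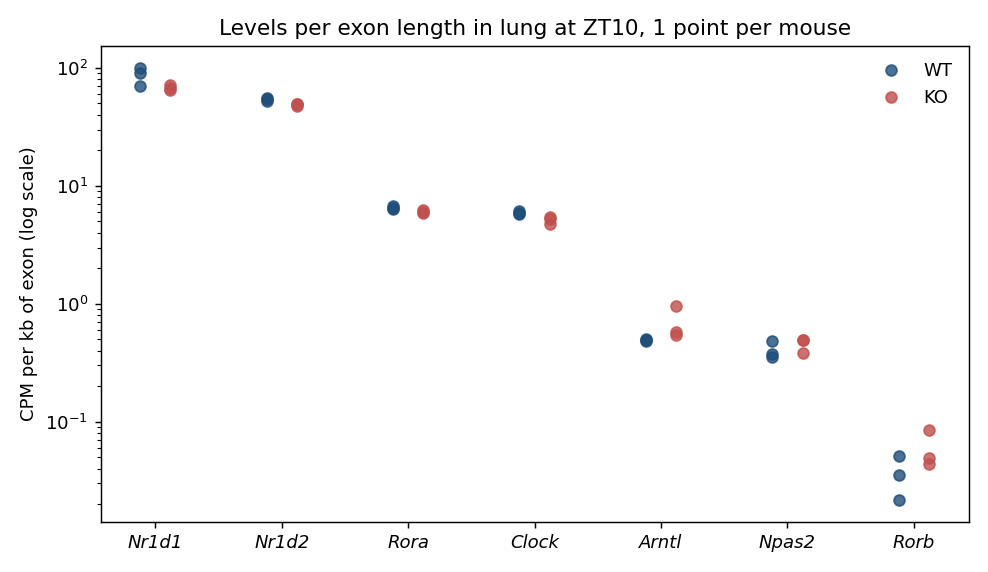
CPM per kb of exon (log scale) for each gene, 1 point per mouse, WT in blue and KO in red, ordered by the WT mean. Nr1d1 and Nr1d2 lie between 47.7 and 101 CPM per kb, Rora and Clock between 4.72 and 6.72, and Arntl, Npas2 and Rorb all below 1.

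Arntl and Nr1d1 run in opposite phases in the clock, and their log2 difference in each library (Arntl minus Nr1d1, in CPM) was -6.27, -6.36 and -5.88 in WT4, WT5 and WT6 and -5.66, -4.81 and -5.69 in KO4, KO5 and KO6. The lowest KO value lay just above the highest WT value. This difference was chosen after the values of both genes were known and was given no test.

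The remaining clock genes were followed as lists, which were chosen with earlier results of these data known. Of the 8 clock repressors, 2 passed the adjusted p, both lower in KO mice: Ciart, whose product inhibits the CLOCK and BMAL1 pair, with a log2 fold change of -0.46 (adjusted p = 0.0120, edgeR), and Per2 with -0.41 (adjusted p = 0.0223, edgeR). Over all genes tested 6.39% passed, 2.67% lower in KO mice. Cry1, which like Arntl is driven through ROR elements, was at -0.22 (adjusted p = 0.0941, edgeR). Its KO values all lay below its WT values, as in 15.6% of all genes. The median of the repressor list was -0.13. None of the 4 genes for PAR bZIP factors and Nfil3 passed (median -0.09), and Tef, at 464 to 557 CPM the most abundant of them, was at -0.14 (adjusted p = 0.204, edgeR). Of 16 textbook targets of E-boxes, which include Nr1d1, Nr1d2 and all 8 repressors, 13 were lower in KO mice and 3 higher, with a median of -0.14, where 8415 of all 17037 genes were lower. The same 2 genes, Ciart and Per2, were the ones that passed.

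On the REV-ERB and ROR side, 10 textbook target genes were listed, of which Il6 and Elovl3 were too low to test. None of the other 8, which include Arntl, Clock and Npas2, passed the adjusted p, 3 were higher and 5 lower, and their median was -0.10. Nfil3, a repressor that competes with the PAR bZIP factors, was at -0.04 (adjusted p = 0.932, edgeR). The 6 genes of the NCoR and HDAC3 corepressor complex that REV-ERB receptors recruit had a median of 0.04 and none passed. Ncor1 was at -0.05 with a 95% interval of -0.16 to 0.07, and Hdac3 at 0.05 with an interval of -0.10 to 0.19. Of 7 kinases and ubiquitin ligase subunits that act on clock proteins, 1 passed, against 6.39% of all genes. It was Csnk1e, a casein kinase that phosphorylates PER proteins, at -0.20 (adjusted p = 0.0493, edgeR). Arntl2, the relative of Arntl, was at -0.10 (adjusted p = 0.734, edgeR).

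The calls of Ciart, Per2 and Csnk1e depended on which mice were included, as did the number called over all genes. That number was 1089 with all 6 mice, 1 without WT5, 63 without WT6 and 117 without KO6. It was 254 without WT4, 1278 without KO4 and 933 without KO5. With 1 mouse left out, Ciart and Per2 each passed in 3 of 6 fits, without WT4, KO4 or KO5, and lost the call without WT5, WT6 or KO6, while Csnk1e passed in none. The log2 fold change of Ciart stayed between -0.48 and -0.45, that of Per2 between -0.46 and -0.36 and that of Csnk1e between -0.22 and -0.18.

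**Figure D4:**
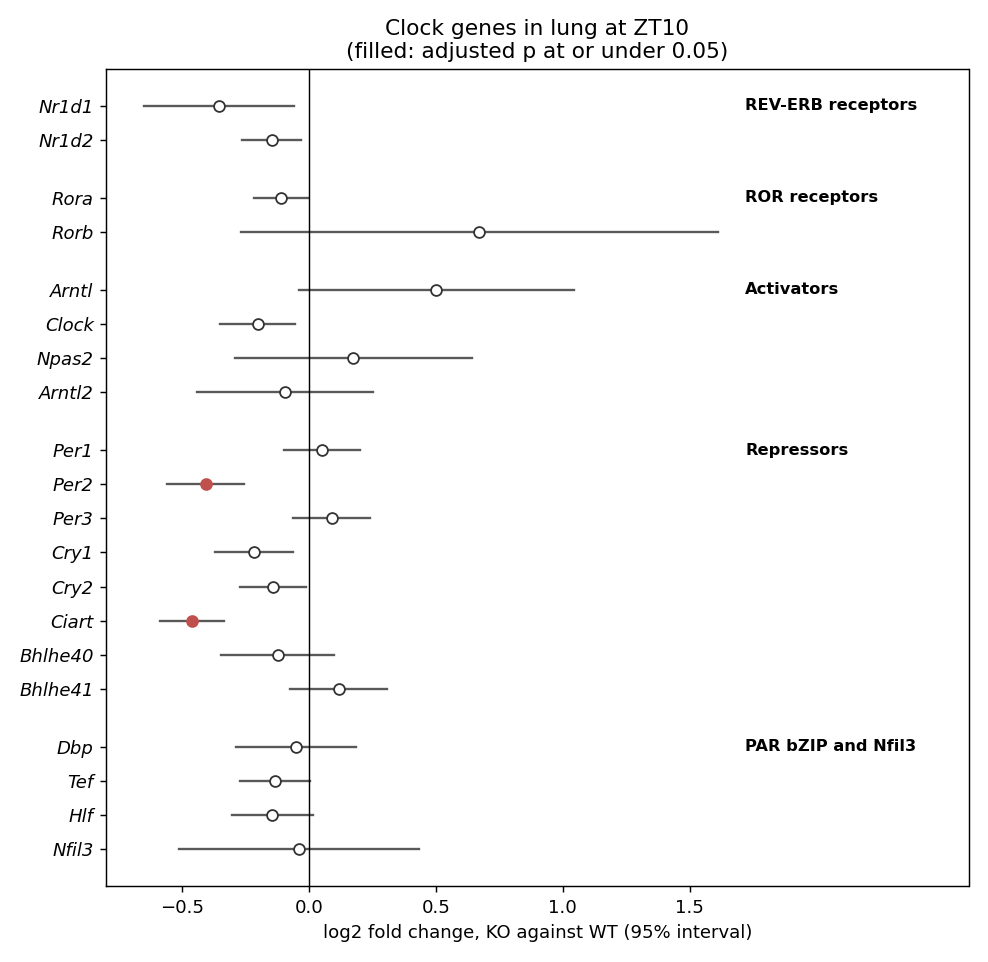
Log2 fold change of KO against WT mice with its 95% interval for each clock gene, grouped by role; filled points passed an adjusted p of 0.05. Ciart and Per2 among the repressors are filled, no receptor or activator is, and the interval of Rorb, from -0.27 to 1.61, is the widest.

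Genes of other cell types differed between the groups as well. Over all genes tested, 3.72% passed the adjusted p higher and 2.67% lower in KO mice. All 6 monocyte genes were higher in KO mice and passed the adjusted p (median 1.33). The 4 tested neutrophil genes were all higher, and 3 of them passed (median 1.07). The 6 B cell and 6 T cell genes were all higher (medians 1.94 and 0.87), but none passed. None of the 7 lung epithelial genes passed, all 7 being lower with a median of -0.23. That median is larger in size than the difference for Clock, Nr1d2 or Rora. Of the 5 endothelial genes 1 passed, Cldn5, at -0.31. All 6 heat shock genes were lower and 4 of them passed, led by Hsph1 at -1.90. The 6 smooth muscle and fibroblast genes were all lower (median -0.36) with none called. None of the cardiac muscle or adipocyte genes passed, the latter with sums of 33.0 to 77.1 CPM, and 4 neuronal genes summed to at most 5.22 CPM. Of the 17 list genes called with all 6 mice, Ciart, Per2 and Csnk1e included, 0 kept the call in edgeR without WT5, 5 without WT6, 6 without KO6 and 8 without WT4, against 14 without KO4 and 14 without KO5. The part of these shifts in the levels of the 7 genes was not tested.

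**Figure D5:**
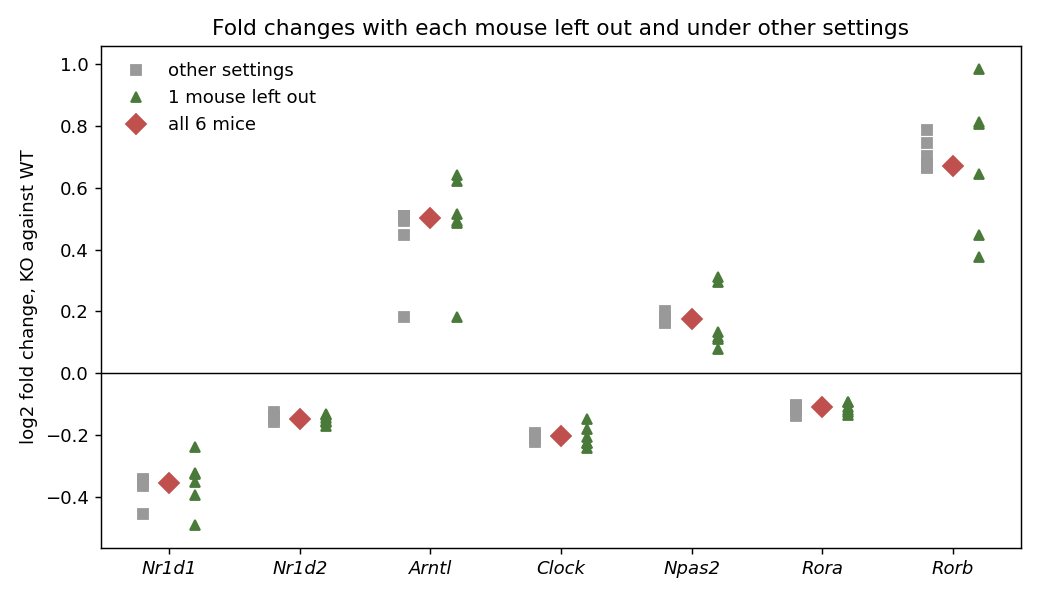
Log2 fold change of KO against WT mice for each gene with all 6 mice (diamonds), with 1 mouse left out (triangles) and under the other settings tried (squares). No gene changes sign; Arntl drops to 0.18 where KO5 is left out, and Nr1d1 ranges from -0.49 to -0.24.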

How the data were processed

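Lung mRNA of 3 WT and 3 KO mice at ZT10 was sequenced from stranded libraries. According to the submitters' processing notes and the study's methods, the authors trimmed reads (Trimmomatic 0.36), aligned them to GRCm38 (STAR 2.5.3a, Picard 2.9.0) and deposited whole read counts per Ensembl gene (HTSeq 0.6.0), without normalization; the annotation release and strand setting are not given in the sources used here. Groups follow the genotype label. P-values measure only the spread between these 3 mice per group.

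KO was tested against WT in R 4.3.3 with edgeR 4.0.16 (quasi-likelihood test, TMM scaling, filterByExpr with a minimum count of 10 and a minimum total of 15, no covariates), with Benjamini-Hochberg adjustment over the 17037 genes kept. Standard errors are the log2 fold change over the square root of F. CPM use scaled library sizes, and log2 CPM a prior count of 2. At these depths 3 counts equal 0.0629 to 0.148 CPM. Positions and exon lengths come from GENCODE M21 (GRCm38). The fit was tested on simulated data. Python 3.11.15 made the tables and figures.

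Alternatives were DESeq2 1.42.0, edgeR's exact test, other scaling factors, other filters, no immunoglobulin genes, the replicate number as a block, each mouse left out, and, chosen after seeing the data, KO5 and WT6 left out together. The genes and lists were chosen with earlier results of these data known. Named genes were the 7 members, Zpbp2, Ormdl3, Thra, the genes of the lists of clock, locus, cell type, heat shock, immediate early and sex-linked genes, and the 3 genes most like Nr1d1 and Arntl over the 6 libraries. Some genes of the lists are counted but not reported by name here. No 2 libraries agreed within sampling noise.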

Additional observations from a re-analysis of the deposited data

How the results depend on the processing

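The 7 genes kept the sign of their fold change under all settings tried that tested them. Npas2 and Rorb had the fewest counts, at most 88 and 26 per library, and leaving out KO5 lowered the standard error of the Arntl fold change from 0.230 to 0.139. Rorb was left out by the filter of at least 10 counts in every library, and DESeq2 gave it no adjusted p. The number of the 7 called was 0 under each setting except DESeq2, which called 2, with a log2 fold change of -0.36 for Nr1d1 and -0.15 for Nr1d2. Over all genes the number called was 1089; it was 1913 under DESeq2, 1468 under edgeR's exact test, 1401 with no filter, 298 without KO5 and WT6 together, and between 1 and 1278 with 1 mouse left out (254 without WT4, 1 without WT5, 63 without WT6, 117 without KO6). With the replicate number as a block it was 66, and the log2 fold change of Nr1d1 was -0.34 (adjusted p = 0.225, edgeR); mice of the same number did not deviate together (r = -0.03, -0.15 and -0.02 for numbers 4, 5 and 6, across genes), and no mouse correlated best with its own number, so the numbers were not treated as pairs. The causes were not tested.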

Other observations

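Over the 6 libraries, the tested genes whose log2 CPM followed Nr1d1 most closely were Arhgef12 (Pearson r = 0.992), Ppp1r37 (r = 0.991) and Capn10 (r = 0.987). Each was high in WT4 and WT5 and lower in WT6 and the KO mice: Arhgef12 measured 468, 483 and 411 CPM in WT4, WT5 and WT6 and 398, 395 and 406 CPM in KO4, KO5 and KO6. Arntl was followed most closely by Gga2, Zbtb37 and Scml4 (r = 0.997, 0.997 and 0.996). In all 3 KO5 was the highest library, and Scml4 measured 17.8 CPM in KO5 against 3.58 to 5.73 CPM in the others. The points share their libraries, groups and depth, and over these 6 points 39 genes reached r = 0.95 with Nr1d1 and 315 with Arntl.

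Ormdl3, a gene close to Zpbp2 that the study also followed, measured 47.1, 46.2 and 45.1 CPM in WT4, WT5 and WT6 and 43.8, 43.4 and 39.8 CPM in KO4, KO5 and KO6. Every KO mouse lay below every WT mouse, as in 15.6% of all genes. The log2 fold change of -0.12 had an adjusted p of 0.232 (edgeR). The sign is opposite to that in the paper, which reported by RT-qPCR a small but significant rise of lung Ormdl3 in KO mice. That result was for genotype across several times of day. Med24 and Psmd3, which lie between Ormdl3 and Nr1d1, were at 0.14 (adjusted p = 0.232, edgeR) and 0.01 (adjusted p = 0.929, edgeR).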
